A study of Rattus norvegicus with 6 samples.

Results

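The comparison described here is that of mild treadmill running (ME) with sedentary control (CONT) in the rat hippocampus. It was measured on 2 of the 6 DNA microarrays of the study, namely those whose titles pair the control RNA with the ME RNA. All 3 groups were male Wistar rats, aged 11 weeks before 1 week of preliminary rearing and the 6-week training period. ME rats ran at 15 m/min, a speed below the lactate threshold, for 60 min per session, 5 sessions a week, for 6 weeks. Rats of the intense exercise group (IE) ran at 40 m/min on the same schedule, and CONT rats did not train. Running was forced, and the rats were first habituated to the treadmill, where slight electric shocks were used, for 1 week in ME and 4 weeks in IE. The sample records place tissue collection 24 or 36 h after the last session, while the study's methods give a longer interval. Per the study's methods, RNA of 5 rats was combined into 1 pool for each group, whereas the array titles number the RNA as Pool 1 and Pool 2. On array 1 the ME pool carried Cy5 and the CONT pool Cy3, and on array 2 the dyes were swapped. The methods were followed here, on which reading both arrays measured the same RNA and the SD between them is technical. If the titles are right, that SD also holds the difference between pools. No test across rats was made on either reading, and the dye swap was counted as 1 replicate. Each value below is the log2 ratio of ME over CONT (log2 ME/CONT) unless another ratio is named, and a value of 1 is a doubling.

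The hippocampus forms and retrieves spatial memory, and its dentate gyrus keeps producing neurons in adult rodents. It is covered by the leptomeninges, thin sheets of fibroblast-like cells that lay down fibrillar collagen and secrete carrier proteins and growth factors into the cerebrospinal fluid. The choroid plexus, which makes that fluid, lies in the ventricle next to it. In RNA of a dissected tissue, a larger number of cells of one type and more RNA per cell cannot be told apart. Markers of hippocampal neurons were read beside the tissue label. Of 15 such genes, 13 were above background in every reading, among them Camk2a, Prox1, Wfs1, Calb1 and Neurod2, and Lct and Cacng5 were not. Of all 15596 genes measured, 11946 had a probe above background in every reading, so this count cannot check the label.

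A probe was called higher when array 1 gave a Cy5/Cy3 ratio of 1.5 or more and array 2 a ratio of 0.75 or less, with the scanner software's p below 0.01 on both, and lower in the reverse case. That p weighs the noise of a spot on 1 array, not differences between rats. Of 40922 probes with a ratio on both arrays, 45 were called higher, which is 0.110% of them, and 5 were called lower, which is 0.0122%. Of the 45, 39 were well above background in all 4 readings (2 channels on each of 2 arrays), which is 0.135% of the probes that were, and so were all 5 called lower, 0.0173% of the same. The 45 probes stand for 34 genes with a symbol, 0.218% of the 15596 genes measured, and 9 of them carry no gene symbol here. Those called lower stand for 4 genes, 0.0256%. Of the 45 probes called higher, 42 have a place in the rn3 assembly that the array annotation uses, spread over 17 chromosomes. Among the 39, the mean ratio ran from 0.65 to 1.77 with a median of 0.943, and the SD between the arrays had a median of 0.10, against 0.13 over all 28896 probes above background. Because the call asks both arrays to pass on the same side, this SD is no measure of how reproducible the called probes are. At the edge of the rule, Cpz at 0.63 and 0.89 and Myh11 at 0.63 and 0.75 lay just inside, while one Tpm2 probe at 0.57 and 0.76 and the inner ear matrix gene Coch at 0.56 and 0.55 lay just outside.

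**Figure D1:**
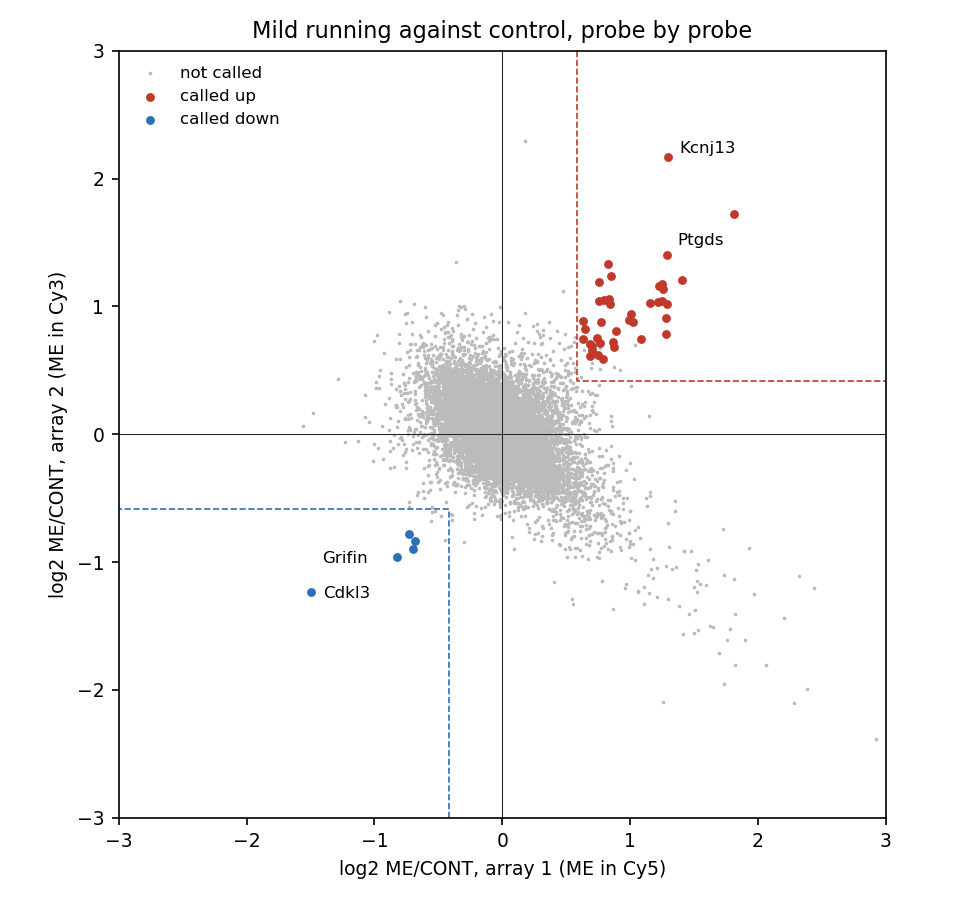
Each point is a probe above background in all 4 readings, with log2 ME/CONT on array 1 (ME in Cy5) on the x axis and on array 2 (ME in Cy3) on the y axis, and dashed lines mark the ratio limits of the call. The 39 red and 5 blue points are the probes called higher and lower, and the grey tail toward the lower right holds probes brighter in Cy5 on both arrays whichever pool carried it.

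Some probes followed the dye and not the pool. By ratio alone, with no p threshold, 168 probes above background were at least 1.5-fold toward Cy5 on both arrays and 38 toward Cy3, while 44 were at least 1.5-fold toward ME on both and 5 toward CONT. A ratio that points the same way on both arrays of the swap is therefore the unit of description in what follows. Over the 11946 genes with a probe above background, 96.6% had a mean ratio within 0.25 of 0. After normexp background correction, which keeps every signal positive and here added an offset of 50, all 50 called probes kept their sign, but 36 had less than 1 over 1.5 of their log2 ratio, among them Kcnj13 at 0.44, Cdh1 at 0.36, Nupr1 at 0.58, Aldh1a2 at 0.29, Prrx2 at 0.23, Fap at 0.25 and Asgr1 at 0.26.

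The collagen genes called higher were those of types I and III, 3 of 32 collagen genes, beside 0.218% of all genes. Col1a2, the second chain of type I collagen, gave processed signals of 2023 with ME and 852 with CONT on array 1 and of 1932 and 855 on array 2. Both ME signals were more than double the CONT signals, and the ratios of 1.25 and 1.18 average 1.21 ± 0.051 (SD of 2 arrays of 1 dye swap), a 2.32-fold difference. A further Col1a2 probe gave 0.99 and 0.89. Col3a1, the chain of type III collagen, had signals of 405 with ME and 170 with CONT on array 1 and of 380 and 184 on array 2. Its ratios of 1.25 and 1.05 make 2.22-fold, and their mean was 0.72 after normexp correction. Pcolce, which speeds the cleavage of the procollagen C-propeptide, stood at 0.68 and 0.70, a 1.62-fold difference, and at 0.39 after normexp correction.

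Of the small leucine-rich proteoglycans, which bind collagen fibrils and set their spacing, Ogn and Fmod were called. Ogn (osteoglycin) had signals of 940 with ME and 355 with CONT on array 1 and of 867 and 376 on array 2, with ratios of 1.41 and 1.20 on one probe and 1.25 and 1.14 on another. Fmod (fibromodulin) had 1742 and 940 on array 1 and 1608 and 917 on array 2, and ratios of 0.89 and 0.81. The ME and CONT signals of both genes did not overlap, as the call largely requires. Omd (osteomodulin) at 0.92 and 0.50 was not called, nor were Bgn (biglycan) at 0.26 and 0.28 and Aspn (asporin) at 0.24 and 0.26. Dcn (decorin) at 0.09 and 0.24 and Lum (lumican) at 0.05 and 0.08 lay close to 0, and Chad at -0.37 and 0.09 was the lowest above background. Of 13 genes of the family measured, 8 were higher on both arrays and 1 was lower on both, beside 13.3% and 14.9% of all genes. The median was 0.17 over the family (0.03 after normexp correction), 0.25 over its 9 members above background and 0.00 over all genes.

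Most other collagen genes lay nearer to 0 than those of types I and III. Of the 32 genes, 7 were higher on both arrays and 1 was lower on both, beside 13.3% and 14.9% of all genes. Their median was 0.06. Col18a1, a basement membrane collagen, stood next at 0.42 and 0.47. The basement membrane chains Col4a1 at 0.02 and -0.01 and Col4a2 at -0.24 and 0.17 were near 0, and Col7a1 at -0.47 and 0.07 was the lowest. Among 44 other matrix genes and matrix enzymes, 2 had a called probe, beside 0.218% of all genes. Of the 44, 19 were higher on both arrays, beside 13.3% of all genes, and the median was 0.08. Thbs2 (thrombospondin 2, a matricellular regulator of fibril assembly) gave 0.83 and 1.06 on its called probe and 0.71 and 0.56 on another. Ccn2, a matricellular growth factor, followed at 0.49 and 0.50 without a call, and Fbln2 at -0.35 and -0.04 was the lowest. Fap (fibroblast activation protein, a surface protease) at 1.01 and 0.94 and Cpz (carboxypeptidase Z, a secreted enzyme) were called as well.

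The stretches before the start sites of 4 called matrix genes are shown because these genes were called together. They are RefSeq sequences of the GRCr8 assembly, 250 bases ending just before the annotated start, read 5′ to 3′ on the gene's strand. Capitals mark, in either orientation, the letters CCAAT of the box of that name, the letters TATAAA of the TATA box, and the letters GGGCGG of the GC box.
Col1a2 (chr4:33518307-33518556, plus strand): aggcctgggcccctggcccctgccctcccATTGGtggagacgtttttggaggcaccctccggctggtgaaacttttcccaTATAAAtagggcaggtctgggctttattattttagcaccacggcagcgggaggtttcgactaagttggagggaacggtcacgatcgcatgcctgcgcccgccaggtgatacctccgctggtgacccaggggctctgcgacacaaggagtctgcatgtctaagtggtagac
Pcolce (chr12:24720722-24720971, plus strand): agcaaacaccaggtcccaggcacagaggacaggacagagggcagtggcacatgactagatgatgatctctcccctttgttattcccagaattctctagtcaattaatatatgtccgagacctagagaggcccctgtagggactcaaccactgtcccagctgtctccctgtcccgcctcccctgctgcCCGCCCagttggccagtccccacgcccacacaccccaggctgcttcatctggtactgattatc
Ogn (chr17:15258996-15259245, minus strand): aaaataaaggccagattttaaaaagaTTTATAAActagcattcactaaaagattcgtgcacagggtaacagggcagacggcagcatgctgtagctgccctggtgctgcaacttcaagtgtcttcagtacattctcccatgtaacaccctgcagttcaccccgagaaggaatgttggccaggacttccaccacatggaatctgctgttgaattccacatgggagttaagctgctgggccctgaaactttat
Fmod (chr13:48045317-48045566, plus strand): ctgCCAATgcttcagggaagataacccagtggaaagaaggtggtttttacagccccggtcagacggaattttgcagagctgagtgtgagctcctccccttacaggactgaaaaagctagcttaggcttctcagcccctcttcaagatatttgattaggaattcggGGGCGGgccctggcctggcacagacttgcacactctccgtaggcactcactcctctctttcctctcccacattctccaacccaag
The 4 sequences share no single one of these motifs. The CCAAT letters stand in those of Col1a2 and Fmod, the TATA box letters in Col1a2 and Ogn, where 2 copies in opposite orientation overlap, and the GC box letters in Pcolce and Fmod. Of the 34 genes called higher, 23 had a sequence to search, and 7 of these held the CCAAT letters, 4 the TATA box letters and 10 the GC box letters. Over 27457 stretches of the same length, one per gene, the shares were 34.3%, 13.1% and 32.4%. A match in this window is a run of letters and not a measured site.

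Col1a1, the first chain of type I collagen, was read by 3 probes of 60 bases that did not agree. The probes lie close to each other on chr10 of rn3, plus strand, and the first 30 bases of each are shown because the ratio depends on which one is read.
Probe a (chr10:83652273-83652332): aatacaaaaccaccaagacctcccgcctgc
Probe b (chr10:83652326-83652385): gacattggtgccccagaccaggaattcgga
Probe c (chr10:83652547-83652606): aacttagtttttatctttgaccaactgaac
Probe c, which starts 221 bases after probe b, gave 1.23 and 1.16 from signals of 1658 with ME and 707 with CONT on array 1 and of 1524 and 682 on array 2. Probe a gave 0.08 and 0.18 from signals of 585 and 554 on array 1 and of 699 and 617 on array 2. Probe b gave 0.17 and 0.31. All 3 probes were above background throughout, and the gaps between probe c and the others exceeded the SD of any of them, which was at most 0.098. On IE/ME the same split stood, with -1.07 for probe c and -0.05 and -0.25 for probes a and b. Col1a1 is therefore counted as called from 1 probe of 3, and its mean over the 3 probes was 0.52.

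Other called genes with several probes behaved in both ways. Foxc2, a forkhead transcription factor of meningeal and vascular development, gave 1.21 and 1.03 on one probe, with signals of 59.8 with ME and 25.8 with CONT on array 1, and 0.05 and 0.01 on the other, with 1535 and 1486. Myh11, smooth muscle myosin heavy chain, gave 0.63 and 0.75 on one probe and 0.09 and 0.04 on the other. By contrast the 2 probes of Ogn, the 2 of Col1a2 and the 3 of Tpm2, a tropomyosin of contractile cells, all lay on the same side. The Tpm2 probes gave 0.70 and 0.66 (called), 0.57 and 0.76, and 0.34 and 0.62.

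Ptgds encodes lipocalin-type prostaglandin D2 synthase, which leptomeningeal and choroid plexus cells secrete and which also carries retinoids and other lipids. Its signals were 25739 with ME and 10559 with CONT on array 1 and 28423 and 10749 on array 2, and the ratios of 1.29 and 1.40 make 2.54-fold. Of 20 prostaglandin synthases and receptors, Ptgds alone was called, beside 0.218% of all genes. Ptgis (prostacyclin synthase) came next at 0.15 and 0.45, and the cyclooxygenases Ptgs1 at -0.02 and -0.02 and Ptgs2 at 0.15 and 0.01 lay near 0. The prostacyclin receptor gene Ptgir at -0.14 and -0.09 was the lowest above background.

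**Figure D2:**
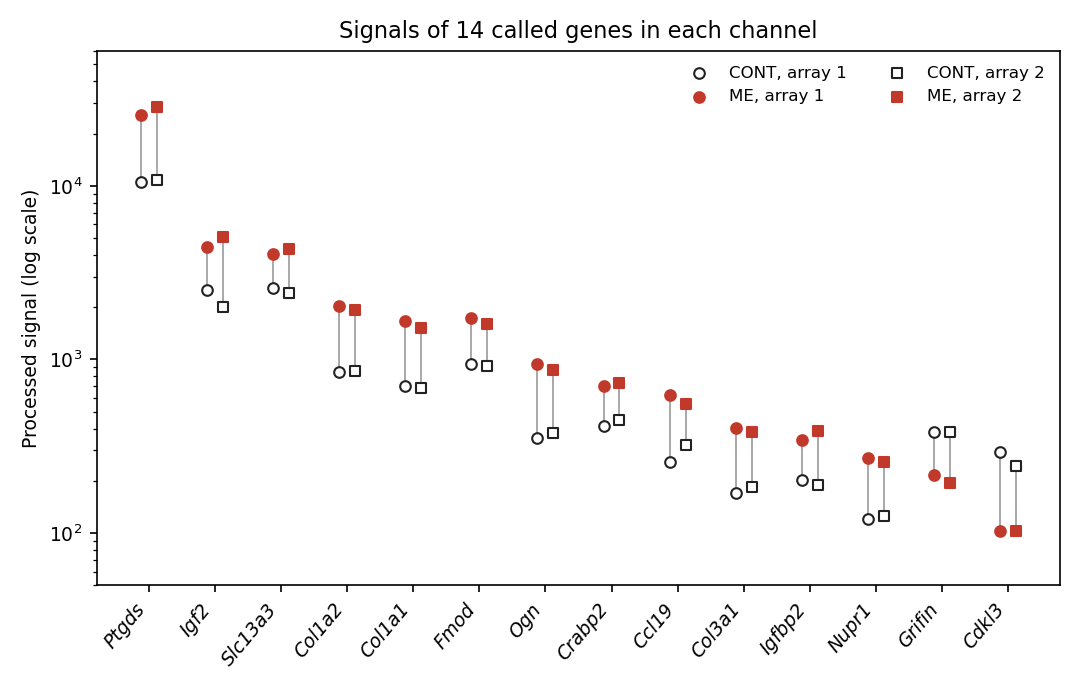
Processed signal on a log scale of 14 called genes in each channel, with open symbols for CONT and red ones for ME, circles for array 1 and squares for array 2, and a line joining the 2 pools of an array. For Ptgds through Nupr1 both ME signals stand above both CONT signals, and for Grifin and Cdkl3 both stand below, as the call largely requires.

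In the insulin-like growth factor system, a ligand and a binding protein were called and the receptors were not. Igf2, a growth factor made by meninges and choroid plexus in the adult brain, had signals of 4469 with ME and 2527 with CONT on array 1 and of 5049 and 2003 on array 2, hence ratios of 0.82 and 1.33. Igfbp2, a binding protein of insulin-like growth factors, stood at 0.75 and 1.05, a 1.87-fold difference. Igfbp6, which prefers Igf2, was next at 0.24 and 0.36 and was not called. The receptor genes Igf1r at -0.29 and 0.20, Igf2r at 0.03 and -0.11 and Insr at 0.26 and -0.30 changed sign between the arrays. Igfbp5 was the lowest, at -0.53 and 0.22. The median of the 18 genes was 0.01, and 2 of them were called, beside 0.218% of all genes.

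Retinoic acid genes showed the same arrangement, with 2 of 24 called, beside 0.218% of all genes, and a median of 0.04. Aldh1a2, the enzyme that makes retinoic acid in the meninges, had ratios of 0.79 and 1.05 from signals of 129 with ME and 74.3 with CONT on array 1 and of 126 and 60.7 on array 2. Crabp2, which carries retinoic acid to the nucleus, had 704 and 415 on array 1 and 733 and 446 on array 2, and ratios of 0.76 and 0.72. Rbp4, the retinol carrier, stood at 0.35 and 0.36 without a call. The receptors Rara at -0.62 and 0.68 and Rxrb at -0.54 and 0.62 had opposite signs on the arrays, so that they followed the dye. Rbp3 at -0.31 and -0.08 was the lowest.

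Transporters of the meningeal and other barriers were called one by one and not as a class. Slc13a3, which takes up dicarboxylates with sodium, had signals of 4039 with ME and 2578 with CONT on array 1 and of 4299 and 2427 on array 2, a 1.67-fold difference. Slc6a13, a GABA and taurine transporter of the leptomeninges, stood at 0.78 and 0.88, and Slc6a20a, an imino acid transporter, at 0.70 and 0.69. Slc22a6, an organic anion transporter, had 0.49 and 0.54 and was not called. Over 278 solute carrier genes on the array 44 were higher on both arrays and 44 lower on both, beside 13.3% and 14.9% of all genes. The median was -0.01, and 2 were called, beside 0.218% of all genes (the list's pattern does not take in Slc6a20a). Slc22a18 had the highest mean among those above background, but it rests on array 2, with 2.29 there and 0.18 on array 1.

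Markers of meningeal fibroblasts and arachnoid cells were higher as a list. The members were chosen with earlier results of these data known, so the counts describe the list and are not independent support. All 26 were above background, and 14 had a called probe, beside 0.218% of all genes. With all probes averaged, 25 were higher on both arrays, beside 13.3% of all genes, and none was lower on both. Over probes above background 24 were higher on both, beside 13.8% of genes higher and 15.4% lower. The median was 0.58 on array 1 and 0.67 on array 2, and 0.33 after normexp background correction. Besides the genes above, Cdh1 (E-cadherin, of arachnoid barrier cells) was called at 1.29 and 1.02, and Asgr1, a lectin receptor better known from liver, at 0.85 and 1.24. Tbx18, a transcription factor of meningeal and mural cells, had 0.53 and 0.63 averaged over its probes. These did not agree, with 1.01 and 0.38 on one and 0.04 and 0.87 on a dimmer one. Gjb2 (connexin 26) had 0.53 and 0.60 and Aebp1, a collagen-binding protein, had 0.37 and 0.75. None of these genes was called. The lowest was Slc47a1 at 0.05 and 0.01. The summed processed signal of the list's probes was 48179 with ME and 24534 with CONT on array 1 and 51241 and 24515 on array 2, a sum in which Ptgds is the main part. No defining marker of the list was at background. The list overlaps the collagen, retinoid and growth factor genes described above, and the part that adhering meninges have in those results was not tested.

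**Figure D3:**
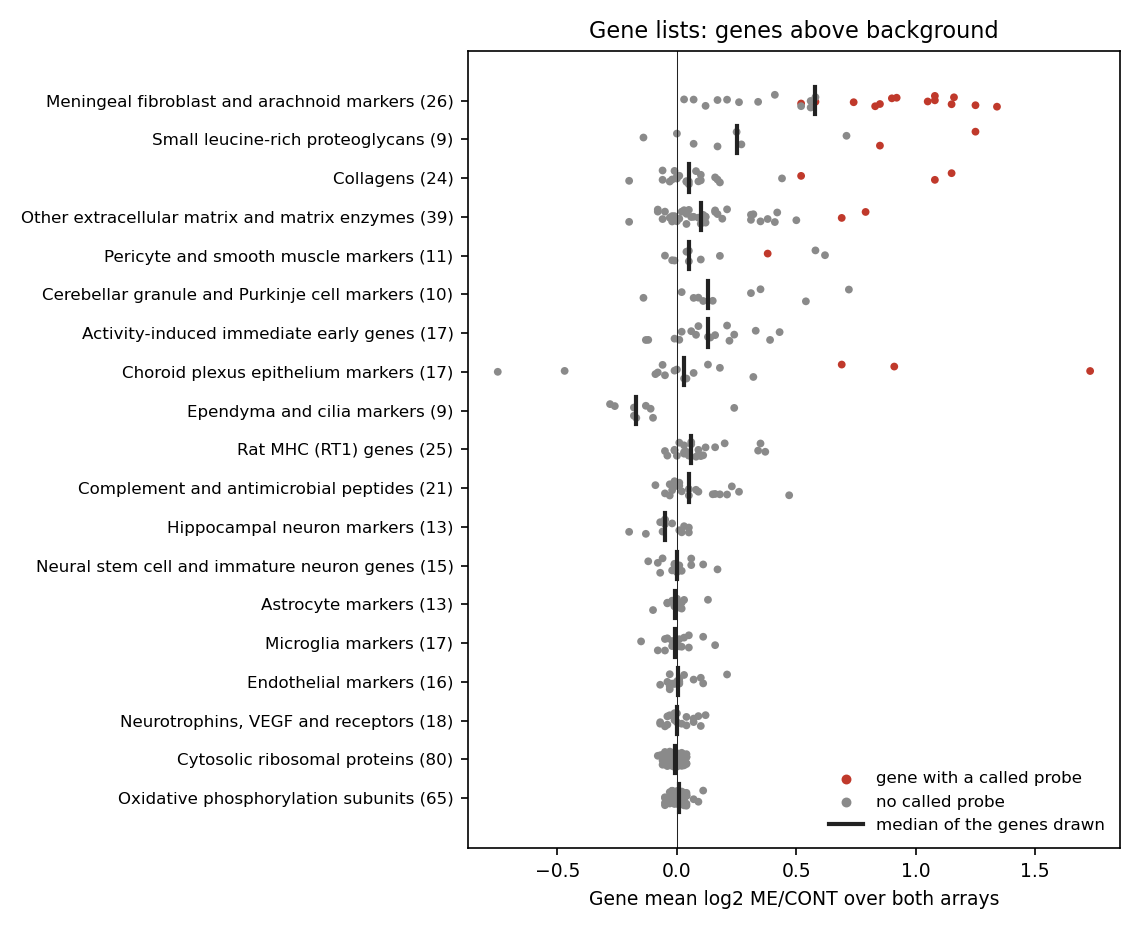
Each point is a gene, placed by its log2 ME/CONT averaged over both arrays and over its probes above background, in 19 gene lists with the number of genes drawn in parentheses. Red points have a called probe and black bars are medians, which lie at 0.58 for meningeal markers and between -0.17 and 0.25 for the other lists.

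Other called genes belong to transcription, stress and immune roles. Nupr1, a small chromatin protein induced by cell stress, had signals of 270 with ME and 121 with CONT on array 1 and of 255 and 125 on array 2, with ratios of 1.16 and 1.03. Prrx2, a homeobox gene of mesenchyme, stood at 0.75 and 1.19 from dim spots of 59.8 to 74.4 with ME. Ccl19, a chemokine that guides lymphocytes and dendritic cells through Ccr7, had 625 and 258 on array 1 and 552 and 320 on array 2, and ratios of 1.28 and 0.79. Ch25h, which makes 25-hydroxycholesterol, stood at 0.87 and 0.72. Of 31 cytokine and chemokine genes and their regulators, Ccl19 was the called one, beside 0.218% of all genes, and the median was 0.05. Prl3d4, a placental member of the prolactin family, gave 0.74 and 0.75.

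Genes of class II antigen presentation were not called. Over probes above background, RT1-Da stood at 0.51 and 0.23, RT1-Db1 at 0.41 and 0.29 and the invariant chain gene Cd74 at 0.30 and 0.38. A further RT1-Db1 probe, not above background in every reading, gave 3.28 and -3.17, and the other two were at 0.02 and 0.10 after normexp correction. Of 34 MHC genes, 6 were higher on both arrays and 1 was lower on both, beside 13.3% and 14.9% of all genes. Most class I genes changed sign between the arrays, and the median over 34 MHC genes was -0.10 on array 1 and 0.22 on array 2. Among 33 complement and antimicrobial genes, 12 were higher on both arrays and 1 lower on both, beside the same 13.3% and 14.9%. Cfd (complement factor D) had the highest mean above background, at 0.49 and 0.45. Cfi was the lowest, at -0.21 and 0.04.

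Contractile genes of vessel walls stood beside Myh11 and Tpm2 without a call. Tagln (transgelin) stood at 0.43 and 0.81 and Des (desmin) at 0.44 and 0.71. Of the pericyte genes, Rgs5 had 0.04 and -0.13, the lowest, and Kcnj8 had -0.03 and 0.00. The median over 12 pericyte and smooth muscle genes was 0.07, and 4 were higher on both arrays, beside 13.3% of all genes. Endothelial markers had a median of 0.00, with 4 of 17 higher on both arrays and 2 lower on both, beside 13.3% and 14.9%.

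Choroid plexus markers were divided. Kcnj13, an inward rectifier potassium channel of that epithelium, had signals of 102 with ME and 41.7 with CONT on array 1 and of 104 and 23.1 on array 2, with ratios of 1.30 and 2.17. Ttr, which carries thyroxine in the fluid, had 798 and 376 on array 1 and 709 and 423 on array 2, with ratios of 1.08 and 0.74. Sostdc1, a secreted inhibitor of BMP signalling, stood at 0.79 and 0.59. The remaining 22 genes of the list were not called, so that 3 of 25 were, beside 0.218% of all genes. Aqp1 gave 0.13 and 0.13, Folr1 gave -0.14 and 0.04, and the keratin genes Krt18 and Krt8 were lowest at -0.34 and -0.59 and at -1.56 and 0.06, the latter from array 1 alone. The list's median was 0.00, its summed signal was 5585 with ME and 5011 with CONT on array 1 and 5385 and 5274 on array 2, and Cldn2, Clic6, Kl and Prlr were among 8 of its 25 genes not above background. The part of adhering choroid plexus in the 3 calls was not tested.

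Ependymal and cilia genes lay below 0 in the median. Of 10 genes 7 were lower on both arrays and 2 higher on both, beside 14.9% and 13.3% of all genes, with a median of -0.17 and no call. Foxj1, the transcription factor of motile cilia, stood at -0.13 and -0.42, the lowest, and Rarres2 at 0.13 and 0.35 was the highest above background. After normexp correction the median of the list was -0.02.

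Among the called genes with the widest ratios, 4 were not well above background with CONT on either array, so a fold against CONT is given as a bound set by a floor. The bounds take the mean level with ME over the higher of the CONT level and the lowest level called above background, on log2 levels of each channel normalized within and between the arrays, and each pool was read once in each dye. Some brighter spots were still not called above background, such as Clic6 with a CONT signal of 15.2 on array 1. Each "at least" below therefore holds for this floor only, and a higher floor would give a smaller fold. Defb1, an epithelial antimicrobial peptide, had signals of 44.8 with ME and 3.82 with CONT on array 1 and of 31.1 and 6.08 on array 2, and was at least 3.2-fold higher with ME. Csap1 (common salivary protein 1) was at least 3.1-fold higher, with signals of 36.1 and 3.68 on array 1 and 36.4 and 6.09 on array 2. Gabra6, the GABA-A receptor subunit of cerebellar granule cells, was at least 2.6-fold higher, and Cnmd (chondromodulin, an antiangiogenic cartilage protein) at least 2.3-fold. Their ratios after normexp correction were 0.28, 0.20, 0.23 and 0.13 in the same order. LOC685429 was read at 4.12 on array 1 and 0.68 on array 2, a spread wider than the ratio on array 2.

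Cerebellar genes were read beside Gabra6 because granule cells are its main source. Of 14 granule and Purkinje cell markers, 8 were higher on both arrays and 1 lower on both, beside 13.3% and 14.9% of all genes. The median was 0.25 over all, 0.08 after normexp correction, and 0.13 over the 10 above background. Ppp1r17, a phosphatase inhibitor of Purkinje cells, was highest at 0.77 and 0.67, Car8 stood at 0.27 and 0.81 and Pcp2 at 0.41 and 0.21, and none of these was called. Il16 was the lowest, at -0.28 and 0.00. Gabra6, Fat2, Grid2ip and Zic2 were not above background throughout. The summed signal was 1448 with ME and 1311 with CONT on array 1 and 1457 and 1275 on array 2, and the part of cerebellar tissue in the Gabra6 call was not tested. Of the 18 GABA-A subunit genes Gabra6 was the called one, beside 0.218% of all genes. Gabra5, a subunit prominent in the hippocampus, stood at -0.12 and 0.06.

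Of the 5 probes called lower, 4 have a gene name. Cdkl3, a kinase related to the cyclin-dependent kinases, had signals of 103 with ME and 292 with CONT on array 1 and of 103 and 242 on array 2. Its ratios of -1.50 and -1.23 make CONT 2.58-fold higher, and their mean of -1.37 was -0.67 after normexp correction and -0.87 without background subtraction. Grifin, a galectin-related protein first known from the lens, had 215 with ME and 380 with CONT on array 1 and 195 and 380 on array 2, with ratios of -0.82 and -0.96. For both genes the ME and CONT signals did not overlap, as the call largely requires. RGD1561795 at -0.70 and -0.90 and RGD1562658 at -0.73 and -0.78 are gene models without a described role here, and a further RGD1562658 probe gave -0.10 and -0.05.

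Immediate early genes, which neurons switch on within minutes of firing, had no call. Of 18 such genes 10 were higher on both arrays and 2 lower on both, beside 13.3% and 14.9% of all genes, with a median of 0.11. Dusp1 stood at 0.24 and 0.63, the highest mean, Arc at 0.38 and 0.41 and Fos at 0.07 and 0.60. Egr1 was at 0.11 and 0.01 and Homer1 at -0.17 and -0.09.

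Lists of neuron, neurogenesis, proliferation and neurotrophin genes had medians near 0. Hippocampal neuron markers had a median of -0.02, with Camk2a highest at -0.17 and 0.28 and Fibcd1 lowest at -0.40 and -0.01. Neural stem cell and immature neuron genes had a median of 0.00 over 15 genes, with Hes5 lowest at -0.23 and -0.02, and Dcx, which marks immature neurons, stood at 0.09 and -0.08. Proliferation genes had a median of -0.06 over 23 genes, with Rrm2 highest in the mean at 1.81 and -1.14, opposite signs on the arrays, and Aurkb lowest at -0.84 and 0.00. Neurotrophin, VEGF and receptor genes had a median of -0.01 over 20 genes, and every member above background lay between -0.07 and 0.12. No gene of these 4 lists was called.

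Large housekeeping families lay in narrow ranges. The 80 cytosolic ribosomal protein genes lay between -0.08 and 0.04, and 65 genes for subunits of oxidative phosphorylation between -0.05 and 0.11. Cholesterol synthesis genes, 22 in number, lay between -0.09 and 0.05. Astrocyte markers had a median of 0.00, microglia markers -0.02 and oligodendrocyte and myelin genes 0.01, and none of these was called. Corticosteroid receptors and target genes had a median of 0.01 over 15 genes, heat shock and J-domain chaperones 0.00 over 59, and antioxidant enzymes 0.01 over 26. Among 87 potassium channel genes, Kcnj13 was the called one, beside 0.218% of all genes.

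Beyond the called genes, 9 genes above background had a mean ratio past 1.5-fold on the higher side with both arrays in the same direction, and 4 on the lower side. Osr1, a zinc finger transcription factor of mesenchyme, stood at 0.69 and 0.72, and Ccn5, a matricellular protein of the same family as Ccn2, at 0.54 and 0.69. Tcfap2b, a transcription factor of the AP-2 family, had 0.47 and 1.12, and Slamf9, an immune receptor, 0.51 and 0.68. Omd, Tagln, Ppp1r17 and Slc22a18 are described with their lists. On the lower side, Cfap43, a protein of motile cilia, stood at -0.69 and -0.51, and Ndc1, a nuclear pore protein, at -0.55 and -0.68. Plet1 rests on array 1, with -1.23 there and -0.06 on array 2.

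Signalling families around the called members gave small ratios. Of 37 BMP and TGF-beta genes, Sostdc1 was the called one, beside 0.218% of all genes. On both arrays 8 were higher and 8 lower, beside 13.3% and 14.9% of all genes, and the median was 0.02. Bmp6, a ligand, had 0.34 and 0.34, and the receptor gene Bmpr1b, at -0.37 and -0.06, was the lowest. Wnt genes, 38 in number, had a median of 0.00 and no call. Sfrp1, a secreted Wnt antagonist, was highest with 0.20 and 0.38, and the ligand gene Wnt2b was lowest with -0.21 and -0.11. Among the cytokine genes, Cxcl10 gave 0.91 on array 1 and -0.17 on array 2, and Cxcl1 was lowest at -0.19 and -0.32.

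Genes of lipid transport, neuropeptides and glutamate receptors were not called. Apolipoprotein and lipoprotein genes had a median of -0.03 over 32 genes, from Lrp2 at -0.18 and -0.30 to Apold1, an endothelial early response gene, at 0.44 and 0.14. Neuropeptide genes had a median of -0.01 over 24 genes, with Trh highest at 0.03 and 0.54 and Pdyn (prodynorphin) lowest at -0.11 and -0.24. Ionotropic glutamate receptor genes had a median of -0.03, and Grin1, the obligate NMDA receptor subunit, stood at 0.01 and 0.00. Genes of glucose and lactate use had a median of -0.04 over 18 genes, from Slc2a3, the neuronal glucose transporter, at -0.10 and -0.11 to Slc2a4 at 0.11 and 0.12.

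Markers of neighbouring brain regions and of blood were read in the same way. Thalamus markers had a median of 0.02 over 8 genes, with Prkcd highest at 0.46 and 0.27 and Lhx9 lowest at -0.35 and 0.10. Striatum markers had a median of 0.01 over 9 genes, with Pde10a lowest at -0.31 and 0.01. Erythrocyte genes had a median of -0.02 over 5 genes, and the globin gene Hbb stood at -0.01 and -0.01. No gene of these lists was called.

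The called genes can be set beside the same genes on the other arrays, where IE/CONT uses the same CONT pool and IE/ME the same ME pool on another slide, so the ratios are not independent of one another. Of the 39 probes called higher and above background, 34 had a mean log2 IE/CONT within 0.25 of 0. That is where most genes lie in any case: on ME/CONT 96.6% of genes above background did, and the share on IE/CONT was not counted. As means of 2 arrays, these 34 ran from 0.65 to 1.77 on ME/CONT, from -0.13 to 0.19 on IE/CONT and from -1.94 to -0.51 on IE/ME. The 2 IE/ME arrays did not always agree. Prrx2 changed sign between them, at -1.79 and 0.73, and Cdh1, which has the lowest mean, gave -1.07 and -2.82. Ptgds stood at 1.34 on ME/CONT, -0.11 on IE/CONT and -1.44 on IE/ME, and Col3a1 at 1.15, 0.05 and -1.26. The meningeal list had medians of 0.58, -0.03 and -0.49 in the same order. Some genes departed from this. Ttr stood at 0.91, 2.51 and 1.92, Sostdc1 at 0.69, 2.76 and 2.02, and Kcnj13 at 1.73, 2.09 and -0.12. Prl3d4 stood at 0.75, 0.62 and -0.17. Among those called lower, Cdkl3 had -1.37, -1.43 and 0.04, and Grifin -0.89, -1.23 and -0.46.

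**Figure D4:**
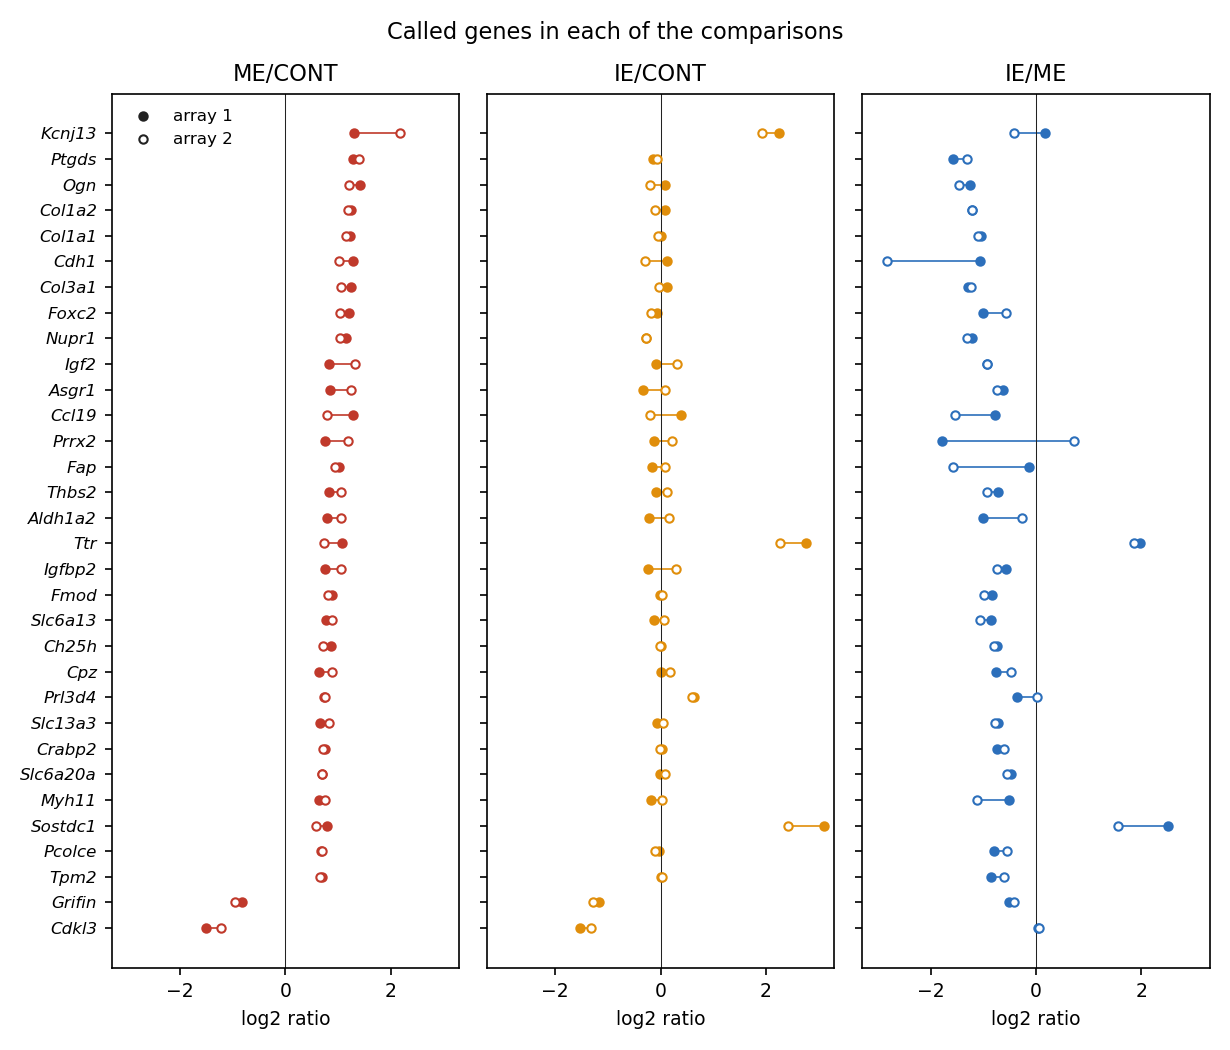
Log2 ratios of 32 called genes on array 1 (filled) and array 2 (open) for ME/CONT, IE/CONT and IE/ME, one probe per gene, ordered by ME/CONT. Most genes stand near 0 on IE/CONT, Kcnj13, Ttr, Sostdc1, Prl3d4, Grifin and Cdkl3 lie farthest from it, and Nupr1 lies at -0.28.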

How the data were processed

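The authors hybridized Cy3- and Cy5-labelled pooled RNA to 4 × 44K rat arrays and read them with Agilent Feature Extraction 9.5.3.1 per the file headers of these arrays (11.0.1.1 for IE vs ME). The deposited log10 ratio of each spot is Cy5 over Cy3 after background subtraction and LOWESS, the deposited p-value is that of the software's error model, and the deposited intensity is the processed signal of a channel. The authors' value table holds log10 ratios with swapped arrays turned. It equals the ratio of processed signals, sign turned, for 100% of spots within 0.001.

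Control features (1639 of 45018) and outlier spots (302 and 274) were left out, spots of a probe were averaged, ratios were turned to log2 ME/CONT, and p was the median over spots. Both channels were well above background at 74.4% and 73.2% of spots, and the number of arrays limits precision. RefSeq accessions named 10852 of 41012 probes, and together with the array's symbols 20129 had a gene symbol and 20883 had none. A gene is the mean of its probes. Gene lists, the rule for named genes (called probes with a symbol, the extremes of each list, genes with discordant probes) and the members were chosen with earlier results of these data known. The ratio limits of the call, without its p threshold, were tried on simulated data with normal noise and no dye effect. Alternatives were other ratio limits, no p threshold, normexp (offset 50) or no background correction with loess in limma 3.58.1 (R 4.3.3), outlier spots kept, the value table, genes for probes and single arrays. Columns of the authors' own comparisons were not used. A few members of the lists are not reported here by name.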

Additional observations from a re-analysis of the deposited data

Results flagged for a closer look

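Among the called probes above background on the ME and IE arrays alike, 7 were flagged as having both ME/CONT arrays on one side of 0 and both IE/CONT arrays on the other. The called Col1a1 probe is not among them, with IE/CONT at -0.0 on array 1 after rounding and -0.05 on array 2. Both ratios use the same CONT pool, and the difference was not tested. Over all genes above background, 13.8% were higher and 15.4% lower on both ME/CONT arrays. The same shares on IE/CONT were not counted, so the 7 are not set against a background. Ptgds stood at 1.34 on ME/CONT and -0.11 on IE/CONT, Foxc2 at 1.12 and -0.13 and Nupr1, the stress-induced chromatin protein, at 1.09 and -0.28. The other, brighter Foxc2 probe stood at 0.03 and 0.02. Pcolce stood at 0.69 and -0.07 and the unnamed transcript AW144471 at 0.78 and -0.11. In the other direction, RGD1562658 stood at -0.76 and 0.24 and RGD1561795 at -0.80 and 0.40. RGD1562658 was also read by another probe, at -0.08 and 0.08. The IE/CONT values of Nupr1 were -0.28 on both arrays and those of RGD1561795 were 0.51 and 0.29, while those of the remaining genes lay closer to 0.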

How the results depend on the processing

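No paired analysis was possible because, per the methods, the RNA of all rats of a group went into a single pool. The counts of 45 probes called higher and 5 called lower stood as they were with 1.5-fold on both arrays, with outlier spots kept and with the authors' value table, and were 39 and 5 over probes above background in all readings. Without the p threshold 224 were higher and 180 lower. After normexp correction and loess, also without p, 12 were higher and 2 lower, and without background subtraction 17 and 2. All of these 12 and 17 were among the 45. With genes in place of probes the counts were 29 and 3, since fewer units were tested and probes of a gene were averaged. A single array called 153 to 720 probes higher and 148 to 482 lower, so that array 1 alone gave 720 and 148 and array 2 alone 153 and 482.

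All 50 called probes had the same sign after normexp correction, but 36 had less than 1 over 1.5 of their log2 ratio, and the median of those called higher went from 0.97 to 0.46. Ptgds and Igf2 moved little, for example Ptgds from 1.34 to 1.31. The matrix genes with higher signals moved more, for example the brighter probes of Col1a2 from 1.21 to 1.08 and of Ogn from 1.31 to 1.01. Dim probes moved most, for example that of Foxc2 from 1.12 to 0.24. Of 41 list medians, 8 moved by more than the SD between the arrays after that correction. The small leucine-rich proteoglycans went from 0.17 to 0.03, the meningeal list from 0.58 to 0.33 and the cerebellar list from 0.25 to 0.08. The offset of 50 by itself pulls the ratios of dim probes toward 0, so that they would move most was fixed in advance. The size of a dim probe's ratio thus depends on the correction chosen, and with pooled RNA the spread between rats was not measured.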
